A study of Cyanidioschyzon merolae with 75 samples.

Results

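The experiment set the second cell cycle of a synchronised culture of the red alga Cyanidioschyzon merolae, strain 10D, against the first at matched times. The 6 arrays compared here were those of 32, 34 and 36 h and those of 8, 10 and 12 h, each pair of times 24 h apart. They were chosen by sampling time from the 75 arrays of the study, and all 4576 genes on the array were compared. Every time was labelled with 3 series. At these 6 times 100% of the intensities of series 3 equalled the mean of series 1 and 2 within 0.01%, so a time counted as 1 sample and series 3 represented it. The labels name no separate cultures, so p-values measure only the scatter of matched differences along this time course.

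C. merolae is a unicellular alga of hot acidic springs whose cell holds a single nucleus, mitochondrion and plastid. Under light and dark cycles its cells grow in the light and then divide, and plastid, mitochondrion and nucleus divide in a fixed order. The comparison asks which transcripts were at another level in the hours before mid-cycle when the same hour came round again. Cy3 marked the RNA of a sampling time and Cy5 a pool of all samples, so each value is a log2 ratio to that pool, set to a median of 0 on its array. A gene said to be above or below the pool is so relative to the median gene of that array. The culture was sampled every 2 h from 2 to 50 h. The sources used here do not give the timing of light and dark. No table used here pairs the locus tags with gene names or products, so genes are described by tag and by course.

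The arrays of the 6 times were of unequal brightness. Median Cy5 intensity was 1568 at 32 h, 763 at 34 h and 3116 at 36 h, against 2650 at 8 h, 1333 at 10 h and 4561 at 12 h. The spread of log2 ratios over genes (SD) was 0.26, 0.33 and 0.26 at 32, 34 and 36 h, and 0.47, 0.29 and 0.33 at 8, 10 and 12 h. Series 1 and 2 differed by an SD of 0.086 to 0.121 over genes at these times. The labels do not say whether these are separate cultures or repeated readings.

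The profiles of 32 to 36 h were each most like a first-cycle time later than the matched one. The array of 32 h correlated best with 12 h (Pearson r across 4576 genes 0.35), that of 34 h with 14 h (0.34) and that of 36 h with 16 h (0.29). Correlations with the array 24 h earlier were 0.24 for 32 and 8 h, -0.21 for 34 and 10 h, and 0.10 for 36 and 12 h. The mean of 32 to 36 h correlated at 0.30 with the mean of 12 to 16 h, at 0.22 with 10 to 14 h and at 0.084 with 8 to 12 h. Genes are not replicates, so these values describe the arrays and carry no test. The order was not smooth, since 32 h also stood at 0.24 with 22 h. Seen from the first cycle it did not hold throughout. Among the times from 26 to 50 h, 10 h was most like 28 h (0.52), a time less than 24 h later. In contrast, 8 h was most like 50 h (0.30) and 12 h most like 48 h (0.38, against 0.35 with 32 h), both more than 24 h later.

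**Figure D1:**
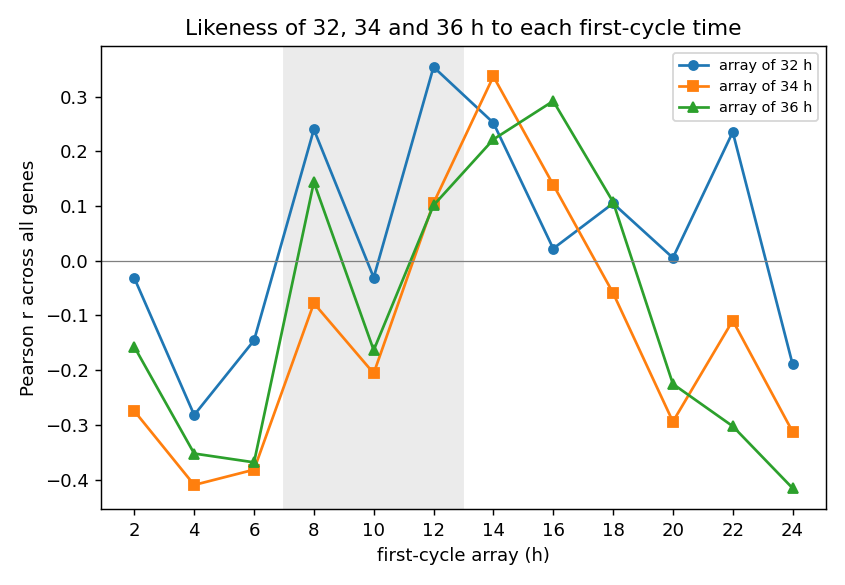
Pearson correlation across 4576 genes (vertical axis) of the arrays of 32, 34 and 36 h with each array from 2 to 24 h (horizontal axis, hours); the grey band marks 8 to 12 h. The highest point lies at 12 h for the array of 32 h, at 14 h for 34 h and at 16 h for 36 h.

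Lags of 18 to 28 h between the cycles were compared on the same arrays, and the measures of spread differed. With 8, 10 and 12 h held fixed, the SD of the mean difference over genes was smallest for times 20 h later, at 0.30. It was 0.32 for a lag of 18 h, 0.34 for 22 h and 0.36 for the matched times, and reached 0.40 and 0.41 for lags of 26 and 28 h. The median absolute difference was instead smallest for the matched times, at 0.153, against 0.179 for 20 h and 0.180 for 22 h. A mean difference of at least 1 on the log2 scale was found in 135 genes for the lag of 24 h and in 47 for that of 20 h. These comparisons all hold the same 3 first-cycle arrays.

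Before the mid-cycle change, 169 of 4576 genes (3.69%) stood at another level in the second cycle. Higher at 32 to 36 h were 95 (2.08%) and lower were 74 (1.62%). A call required a difference of at least 1.5-fold and a limma p, adjusted by Benjamini-Hochberg over all genes, under 0.05. The p alone was passed by 178 genes (3.89%). The difference is the mean of 3 matched differences, with an error shared with the other 9 matched differences of the course. The median over all genes was -0.02, and the middle 50% lay between -0.16 and 0.15. Unadjusted p was under 0.05 in 758 genes. In RNA of a whole culture, more cells at a stage and more RNA per cell cannot be told apart. Called genes had the same sign at all 3 matched times in 94 of the 95 higher and 73 of the 74 lower. The 3 late values lay wholly above the 3 early ones in 87 of the 95 and wholly below in 72 of the 74. Over all genes 9.57% lay wholly above and 9.57% wholly below. The calls rest on the same values, so the counts of sign and overlap in the called genes follow in part from the call.

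The pair of 34 and 10 h carried much of this count. Without it 18 genes were called, all among the 169, against 82 without 32 and 8 h and 274 without 36 and 12 h. The gap between 34 and 10 h reached 1 on the log2 scale in 251 genes, that between 32 and 8 h in 198 and that between 36 and 12 h in 153. Within each group of 3 times, 34 h and 10 h also had the lowest median Cy5 intensity, and the part of this in the result was not tested. Across genes the differences correlated at 0.65 (8 and 10 h), 0.42 (10 and 12 h) and 0.23 (8 and 12 h). The split of higher to lower was 114 to 51 after loess, 54 to 102 after scaling the arrays to a common spread, 141 to 145 after quantile normalisation and 101 to 118 in the authors' deposited log2 values.

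CMJ103C had the highest difference of the called genes. Its log2 ratio was 0.68, 1.31 and 1.30 at 32, 34 and 36 h, against -2.18, -1.58 and -0.90 at 8, 10 and 12 h. The late values lay far above the early ones, with a difference of 2.65 ± 0.22 (standard error of the fit, 3 matched differences, adjusted p 5.36e-05 from limma). In the first cycle the gene had its highest value, -0.33, at 14 h, and in the second it was at 1.31 by 34 h. At 38 h it was back at 0.13.

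CMO089C had a like course. Values of 1.05, 1.87 and 1.09 at 32, 34 and 36 h stood against -0.86, -1.29 and -0.29 at 8, 10 and 12 h, with no overlap. Its difference was 2.15 ± 0.37 (adjusted p 0.00602), a call lost without 34 and 10 h. The highest value of the first cycle, 0.74, came at 14 h, and the highest of the second came at 34 h.

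CMN183C read -0.54, 1.07 and 1.45 at 32, 34 and 36 h, against -2.36, -2.04 and -1.39 at 8, 10 and 12 h. Its late values lay above the pool level from 34 h on, while all early ones lay far below it. The difference was 2.59 ± 0.28 (adjusted p 4.58e-04), and first-cycle values first passed 0 at 14 h, with 0.24. CMN330C (2.32 ± 0.23) had the same pattern, with -0.48, 0.85 and 0.96 at 32, 34 and 36 h against -2.42, -2.02 and -1.17 at 8, 10 and 12 h.

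Several other genes had a like course. CMN263C stood at -1.15, 0.58 and 1.23 at 32, 34 and 36 h, against -2.37, -1.68 and -1.76 at 8, 10 and 12 h, with a difference of 2.16 ± 0.35 (adjusted p 0.00443). At 14 h of the first cycle it had reached 0.35, and at 36 h of the second it was higher than at any first-cycle time. CMT504C had -1.12, 0.56 and 1.29 at 32, 34 and 36 h, against -2.26, -1.92 and -1.47 at 8, 10 and 12 h, a difference of 2.12 ± 0.35. CMI242C was higher by 2.33 ± 0.35. CML063C was higher by 2.28 ± 0.43 but had another course, at -0.001 at 28 h, above its -0.64 at 32 h. Its mean at 26 to 30 h was already 0.97 above that of 2 to 6 h, and at 14 h it stood at -0.57. The calls of CMN263C, CMT504C, CMI242C and CML063C were lost without 34 and 10 h and with arrays scaled to a common spread, and those of CMN263C and CMT504C also when the times were compared as unpaired groups.

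CMO005C was higher by 1.91 ± 0.21 and CML050C by 1.90 ± 0.32, and their highest late values, 0.92 and 1.29, compare with highest early values of -0.81 and -0.82. The call of CML050C was lost without 34 and 10 h. Of the 12 called genes with the highest differences, CMJ103C, CMN183C, CMN330C and CMO005C kept their call in all 18 refits under other settings. Some of these refits could hardly lose a call, among them those with all 3 series as separate values. None of the 12 turned in sign, and CMJ103C ranged from 2.40 to 2.88.

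**Figure D2:**
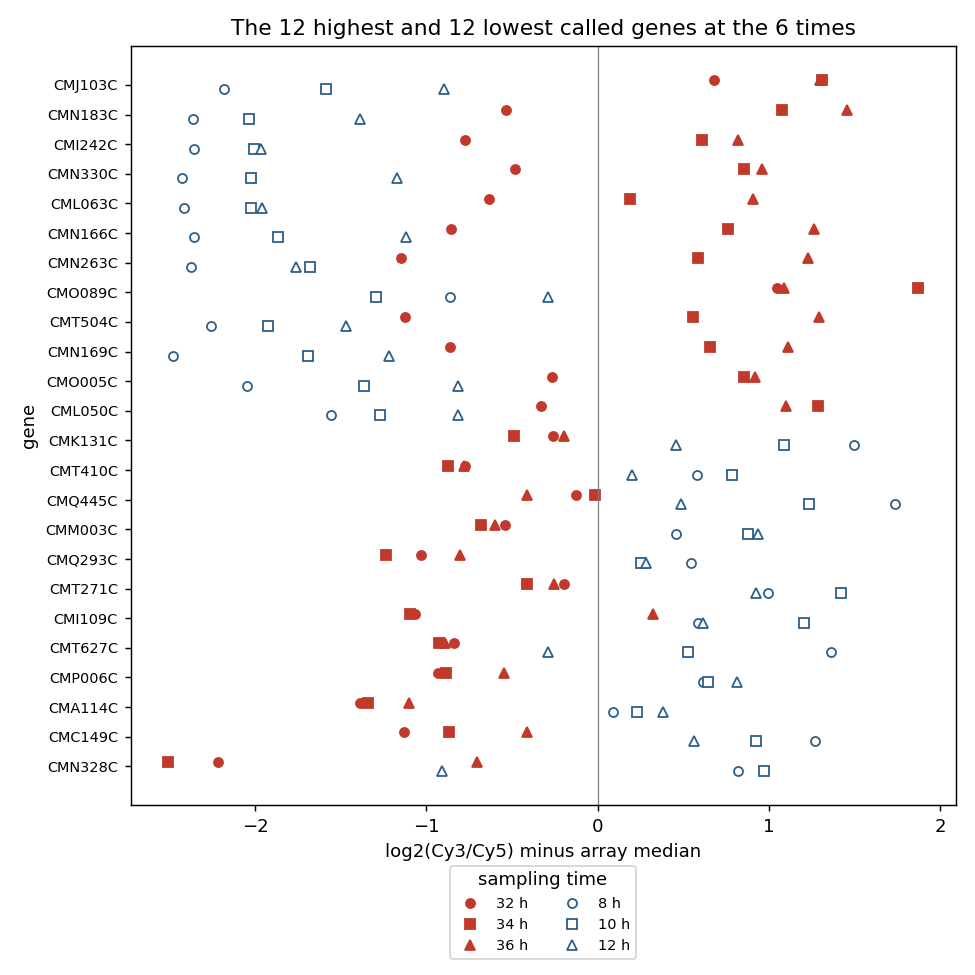
Log2(Cy3/Cy5) minus the array median (horizontal axis) of the 12 called genes with the highest and the 12 with the lowest difference (rows), with filled red symbols for 32, 34 and 36 h and open blue ones for 8, 10 and 12 h. In all rows but that of CMN328C the late and early values do not overlap.

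A stretch of chromosome 14 held several of the higher genes. In the gene order of assembly ASM9120v1, 12 measured genes ran from CMN165C to CMN176C, a stretch chosen after its values were seen. CMN145C, CMN165C, CMN166C, CMN169C, CMN173C and CMN176C were higher in the second cycle, by 1.44 to 2.17, and the highest of the other 6 differences was 0.26. CMN166C had -0.86, 0.76 and 1.26 at 32, 34 and 36 h, against -2.36, -1.86 and -1.12 at 8, 10 and 12 h, a difference of 2.17 ± 0.28 (adjusted p 0.00143). CMN169C was close to it throughout, with -0.86, 0.66 and 1.11 against -2.48, -1.69 and -1.22, and a difference of 2.10 ± 0.25. Both calls were lost when the times were compared as unpaired groups and with arrays scaled to a common spread. All 6 genes were below the pool at 8, 10 and 12 h and above it at 34 and 36 h. Whether similar genes share signal on their probes was not tested.

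Chromosome 14 as a whole had 15 genes called higher and 2 lower among 234 measured, 7.26% against 3.69% of all genes. Among the 15 are the 6 called genes of the stretch, which was chosen after its values were seen. The share is therefore not a result apart from the stretch. No other chromosome reached that share, and what it would be without the stretch was not computed. The next was chromosome 9 with 9 higher and 4 lower among 219, or 5.94%, and on chromosome 4 none of 132 was called. Of 4545 pairs of measured genes next to each other on a chromosome, 13 (0.286%) had both members called, 2 of them in the stretch above. In 9 of the 11 outside it both had the same direction, such as CMN262C and CMN263C, higher by 1.69 and 2.16. In the other pairs, CMN234C with CMN237C and CMI108C with CMI109C, the directions were opposite. Over all 4545 pairs the signs were alike in 49.3%, but most of these hold genes that were not called. The sets are therefore unlike, and the 11 pairs are few.

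The genes called lower had another kind of course. CMA114C stood at -1.39, -1.34 and -1.10 at 32, 34 and 36 h, against 0.09, 0.23 and 0.38 at 8, 10 and 12 h. Its difference was -1.51 ± 0.26 (adjusted p 0.00596), without overlap. From 32 h to 46 h it stayed at -0.61 or below, while its first-cycle values ran from -0.03 to 0.73.

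CMP006C had -0.93, -0.89 and -0.55 at 32, 34 and 36 h, against 0.62, 0.64 and 0.82 at 8, 10 and 12 h, a difference of -1.48 ± 0.17 (adjusted p 6.50e-04). It was above the pool at all 12 first-cycle times and below it at all times from 30 to 50 h. CMQ293C was lower by 1.38 ± 0.20 and CMM003C by 1.36 ± 0.27, with late values from -1.24 to -0.54 against early ones from 0.25 to 0.94. The calls of CMP006C and CMQ293C held in all 18 refits.

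CMT271C had -0.20, -0.42 and -0.26 at 32, 34 and 36 h, against 1.00, 1.42 and 0.92 at 8, 10 and 12 h, a difference of -1.40 ± 0.26. At 26 to 30 h its mean was 0.24 above that of 2 to 6 h. CMK131C was lower in the second cycle by 1.33 ± 0.22, CMT410C by 1.33 ± 0.21 and CMQ445C by 1.34 ± 0.28. CMC149C was lower by 1.72 ± 0.31, with -1.13, -0.87 and -0.41 at 32, 34 and 36 h against 1.27, 0.92 and 0.56 at 8, 10 and 12 h. For 26 to 30 h minus 2 to 6 h its difference was -2.10, further from 0 than in the window. Without 34 and 10 h the calls of CMA114C, CMM003C, CMT271C, CMK131C, CMT410C, CMQ445C and CMC149C were lost, and those of CMK131C, CMQ445C and CMC149C also without 32 and 8 h.

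CMN328C had the lowest difference, -2.10 ± 0.53, and the largest error among the called genes named. Its values were -2.22, -2.51 and -0.71 at 32, 34 and 36 h, against 0.82, 0.97 and -0.91 at 8, 10 and 12 h. At 36 h it was above its value at 12 h, so the groups overlapped. CMI109C (-1.41 ± 0.34) had -1.06, -1.09 and 0.32 at 32, 34 and 36 h, against 0.58, 1.20 and 0.62 at 8, 10 and 12 h, so its value at 36 h lay close under the early ones. CMT627C (-1.42 ± 0.33) had -0.84, -0.92 and -0.89 at 32, 34 and 36 h, against 1.36, 0.53 and -0.29 at 8, 10 and 12 h. The calls of CMN328C, CMI109C and CMT627C were lost in 6 of 18 refits each, those without 34 and 10 h, without 32 and 8 h and after loess among them.

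Called genes were bright. With the genes in 4 classes of 1144 by mean intensity, 0 were called in the dimmest, 6 in the next, 33 in the one after and 130 in the brightest. Of the 74 lower genes 72 lay in the brightest class, and of the 95 higher genes 58. The spread of the differences (SD) was 0.15 in the dimmest class and 0.59 in the brightest. Intensities were used without background correction, and its part in these counts was not tested class by class. After loess, which removes a trend with brightness within each array, 91 of the 95 higher and 45 of the 74 lower genes were still called.

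**Figure D3:**
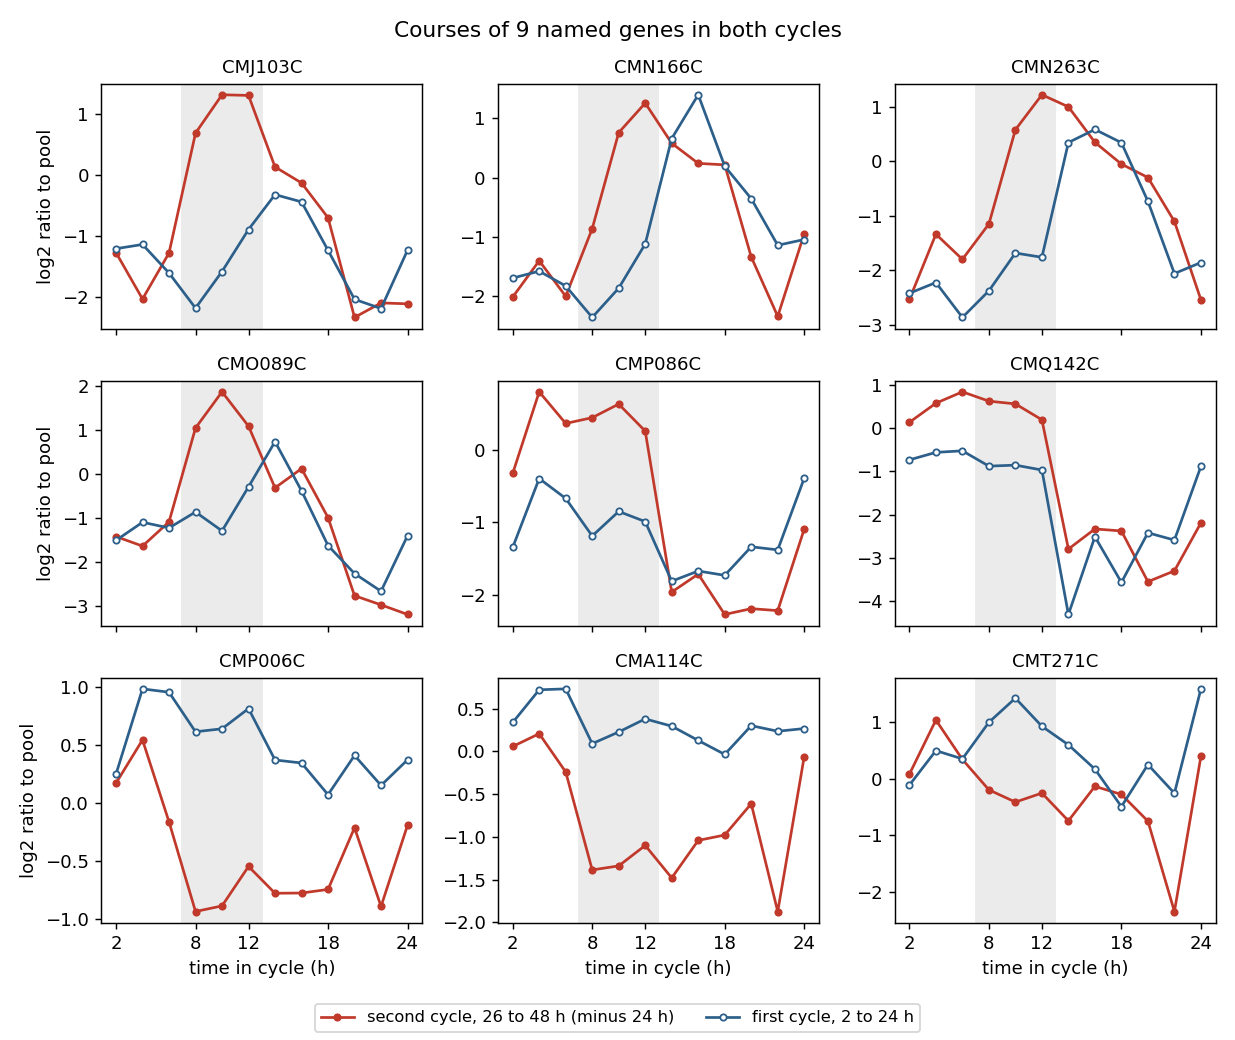
Log2 ratio to the pool (vertical axis) over time in the cycle (horizontal axis, hours) for 9 named genes, chosen after their values were seen; filled red points are the second cycle shifted by 24 h, open blue points the first, and the grey band covers 8 to 12 h. CMJ103C, CMN166C, CMN263C and CMO089C are higher in the band in the second cycle, CMP086C and CMQ142C are higher in the band and at 28 and 30 h, and CMP006C and CMA114C stay lower after it.

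The same rule called 46 genes (1.01%) for 26 to 30 h against 2 to 6 h, 94 (2.05%) for 38 to 42 h against 14 to 18 h and 253 (5.53%) for 44 to 48 h against 20 to 24 h. Higher in the second cycle were 15 (0.328%), 51 (1.11%) and 13 (0.284%) of these, in that order. The mean of the 3 matched differences at 8 to 12 h was tested against the mean of the other windows (2 to 6, 14 to 18 and 20 to 24 h, each set against the times 24 h later). In 63 genes (1.38%) it stood apart at an adjusted p under 0.05 in limma, 62 of them (1.35%) with a more positive and 1 (0.0219%) with a more negative difference at 8 to 12 h. Of the 95 higher genes 53 were among them, and of the 74 lower genes none. That split depended on the setting. More positive and more negative were 53 and 30 genes with quantile normalisation, 199 and 51 with array weights, 101 and 17 without 36 and 12 h, 67 and 9 after loess and 42 and 8 in the authors' deposited log2 values. Genes called lower and past this test numbered 28, 30, 16, 4 and 7 in these settings, in that order. Unadjusted p was under 0.05 in 530 genes. In the 95 genes the median difference was 1.17 in this window, 0.09 at 2 to 6 h, -0.002 at 14 to 18 h and -0.35 at 20 to 24 h. With the arrays scaled to a common spread 0 genes passed in limma, and 489 had an unadjusted p under 0.05. Without 34 and 10 h 15 passed.

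CMT504C exceeded the other windows by 2.72 ± 0.40 (adjusted p 0.00424), CMJ103C by 2.70 ± 0.26 (3.10e-04), CMN166C by 2.57 ± 0.32 (0.00137) and CMN169C by 2.47 ± 0.29 (0.00137). For CMT504C the mean of the other 9 matched differences was -0.60, with -1.37 at 20 to 24 h. CMI242C did not pass (1.72 ± 0.40, adjusted p 0.0593), and its mean over the other 9 was 0.60, on the same side. The gene with the more negative difference in this window was CMB050C, at -0.57 here and 0.17 over the other 9. It is named for being alone, and its difference of under 1.5-fold kept it out of the calls.

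The lower genes were lower at other times too. All 74 had a negative mean over the other 9 matched differences, and in 37 that mean was at least 1.5-fold. Over all genes 48.3% had a negative mean and 2.12% one of at least 1.5-fold, of which 92 were lower and 5 higher. Among the 95 higher genes 44 had a positive mean over the other 9, and in 1, CMI242C, it was at least 1.5-fold. The median over the other 9 was -0.59 in the lower genes, -0.006 in the higher genes and 0.006 in all genes. By window, the lower genes had medians of -0.34 at 2 to 6 h, -0.95 at 8 to 12 h, -0.51 at 14 to 18 h and -0.88 at 20 to 24 h. The count of called genes at another level over the other 9 was 38, and 19 after loess.

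**Figure D4:**
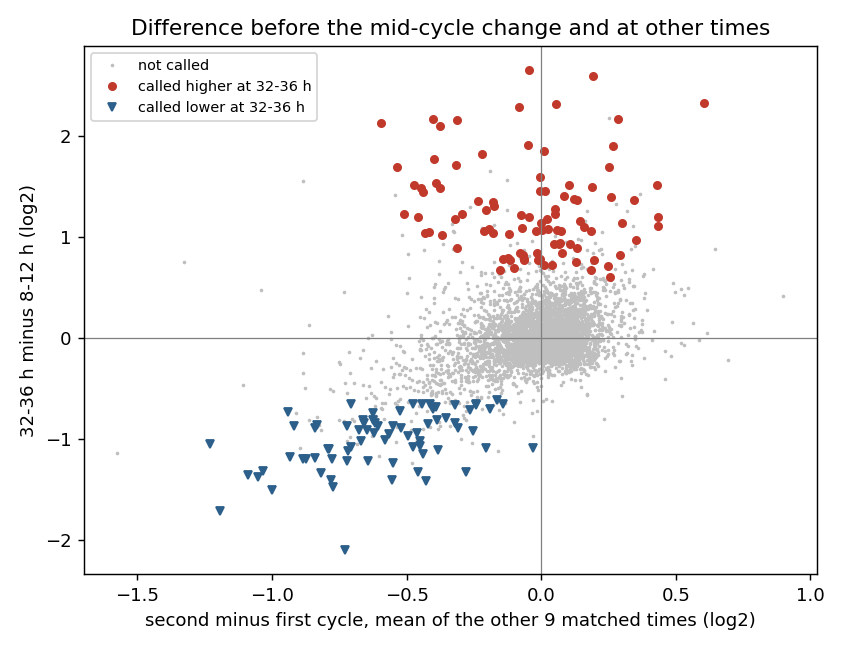
Difference of 32-36 h minus 8-12 h (vertical axis, log2) against the mean second-minus-first difference at the other 9 matched times (horizontal axis, log2), 1 point per gene. Red circles, the 95 called higher, spread to both sides of 0 on the horizontal axis, and blue triangles, the 74 called lower, all lie left of it.

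Values of the windows not compared placed the called genes in the day. Over the 9 first-cycle times outside 8 to 12 h, 67 of the 95 higher genes (70.5%) had their highest value at 14 to 18 h, against 40.3% of all genes. In the second cycle 60 of the 95 (63.2%) had it at 38 to 42 h, against 20.5% of all. The lower genes were highest at 2 to 6 h in 43 of 74 (58.1%, all genes 16.8%) and at 26 to 30 h in 62 of 74 (83.8%, all genes 33.9%).

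To say which genes were ahead, the direction of change at this hour was taken from other samples. A cosine and a sine of 24 h were fitted to the 19 times other than the 6 compared. The fit found a rhythm in 515 genes (11.3%) at an adjusted p under 0.05 in limma, and in 164 (3.58%) it also changed by at least 0.5 on the log2 scale from 8 to 12 h. A gene due to rise and higher at 32 to 36 h, or due to fall and lower, is called ahead. The opposite is called behind. Both names state a direction at this hour and not a shift of the whole course.

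Genes due to rise were nearly all higher. Of 51 such genes 49 had a positive difference, with a median of 1.32, against 45.8% positive and a median of -0.02 over all genes. Calls were made in 21 of them (41.2%, against 3.69% of all), and all 21 were higher. Their fitted peaks lay between 12.4 and 14.8 h. The median of these 21 was 0.37 at 32 to 36 h against -1.32 at 8 to 12 h, and it was 0.40 at 38 to 42 h against 0.61 at 14 to 18 h. CMN183C, CMI242C, CMN330C, CMN166C, CMN263C and CMT504C had the largest differences among them. The 2 due to rise that were not higher were not called.

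Genes due to fall were divided. Of 113 such genes 60 were lower and 53 higher, with a median of -0.07. Called lower were 11, led by CMN328C and CMT627C, and called higher were 18. All 11 were also lower over the other 9 matched differences, with a median of -0.62, and 6 of them were at least 1.5-fold lower there. In the 18 the median was 0.31 at 32 to 36 h against -0.86 at 8 to 12 h. At 26 to 30 h all 18 already had a positive difference from 2 to 6 h, with a median of 0.75, against 50.8% positive over all genes. At 38 to 42 h their difference from 14 to 18 h had a median of 0.01, positive in 11 and negative in 7. At 44 to 48 h their difference from 20 to 24 h was negative in 16, with a median of -0.53, against 55.4% negative over all genes.

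CMQ142C was among the 18. Its log2 ratio was 0.62, 0.56 and 0.19 at 32, 34 and 36 h, against -0.88, -0.86 and -0.97 at 8, 10 and 12 h. The difference was 1.36 ± 0.21 (adjusted p 0.00352). It was already at 0.84 at 30 h, against -0.53 at 6 h. The next time after the window was low in both cycles, at -2.80 at 38 h and -4.31 at 14 h. Its mean was -2.50 at 38 to 42 h against -3.46 at 14 to 18 h, a difference of 0.96. CMN234C had 0.38, 0.48 and 0.06 at 32, 34 and 36 h, against -0.77, -0.99 and -1.14 at 8, 10 and 12 h, and stood at -3.05 at 38 h against -3.83 at 14 h. Before the window it differed little, with a difference of 0.01 between 26 to 30 h and 2 to 6 h. The calls of both were lost without 34 and 10 h, and that of CMN234C also without 32 and 8 h.

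CMP086C had the smallest error of the named genes, with 0.44, 0.63 and 0.26 at 32, 34 and 36 h against -1.19, -0.85 and -0.99 at 8, 10 and 12 h. Its difference was 1.45 ± 0.12 (adjusted p 5.36e-05), and it exceeded the mean of the other windows by 1.44 ± 0.14. Those windows were unlike, at 1.08, -0.24 and -0.80 for 2 to 6, 14 to 18 and 20 to 24 h, so a large positive difference was already there before 32 h. CMI290C was higher by 1.40 ± 0.21 and exceeded the mean of the other windows by 1.32 ± 0.24, with 0.82, 0.27 and -0.84 in the same windows. CML339C (1.49 ± 0.36) and CMP346C (1.39 ± 0.29) were called as well, and lost the call in 4 of 18 refits each, among them those without 34 and 10 h and without 32 and 8 h. All 18 genes were behind by the rule, in that they were due to fall and were higher. Since they were higher at 26 to 30 h too, the name does not describe a later course.

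**Figure D5:**
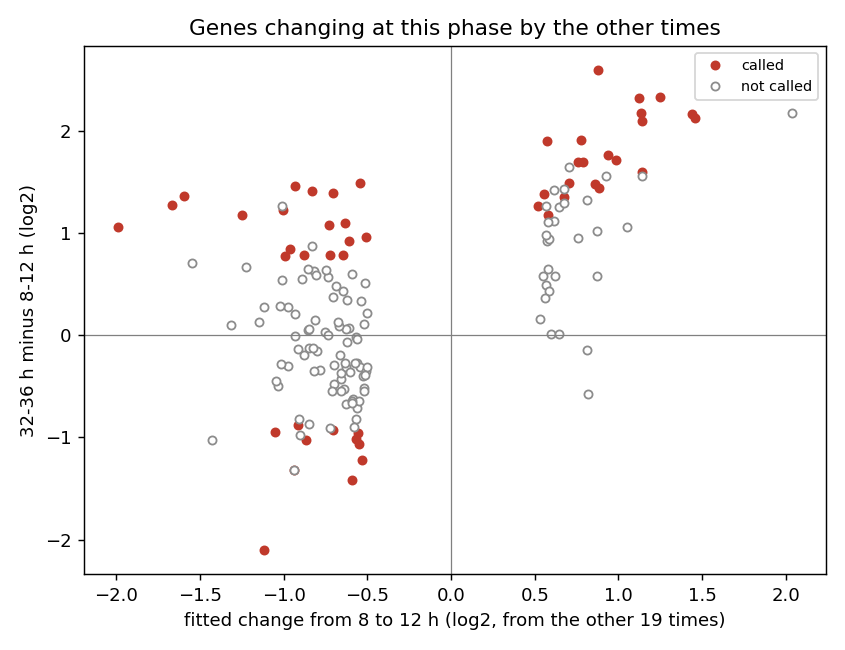
Difference of 32-36 h minus 8-12 h (vertical axis, log2) against the change from 8 to 12 h fitted to the other 19 times (horizontal axis, log2) for 164 genes, filled red where called. Of the 51 genes on the right 49 lie above 0, and the 113 on the left lie on both sides.

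Over all 515 rhythmic genes the difference varied with the fitted peak time. Genes peaking between 12 and 14 h had a median difference of 0.66 (86 genes, 76 positive), those between 10 and 12 h 0.40 (90 genes, 75 positive) and those between 14 and 16 h 0.47 (48 genes, 41 positive). Genes peaking between 6 and 8 h had a median of -0.27 (56 genes, 17 positive). Calls followed, with 24 higher and none lower at 12 to 14 h, and 1 higher and 8 lower at 6 to 8 h. Between 4 and 6 h 13 were higher and 3 lower, and most of the 18 genes that were behind had their peak there. Of the 169 called genes 32 were ahead by the rule, 18 behind, and the other 119 were given no direction by it. Among the 119, 32 higher and 5 lower genes had a rhythm but a fitted change under 0.5. Of the 32, 7 were also at another level over the other 9 matched differences, 6 of them lower and CMI242C higher. CMJ103C and CMO089C were among the 119, with fitted peaks at 11.8 and 11.1 h. Their fitted changes from 8 to 12 h, 0.42 and 0.47, were just under the limit of 0.5.

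By size alone, with no estimate of spread, 119 genes (2.6%) were at least 2-fold apart in the mean and on the same side at all 3 matched times, 77 higher (1.68%) and 42 lower (0.918%), and 101 of them were called. CMS022C was the largest of those not called, with a difference of 2.17 ± 0.84 (adjusted p 0.201), followed by CMG078C with 1.56 ± 0.41 (0.0578).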

How the data were processed

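Members and rules were chosen with earlier results of these data known. Per the file headers, the authors deposited raw Cy5 and Cy3 intensity values, scaled Cy3 intensity values, the ratio of scaled Cy3 to Cy5, and a log2 value. Per the labels' protocols, Cy3 marked the sampling time and Cy5 the mixture. The sources used here do not name the scanner. Ratios were computed here as log2(Cy3/Cy5) minus the array median in R 4.3.3, and 10 of 4576 genes had 2 probes, which were averaged. None of these 10 was called. The 12 differences between times 24 h apart were fitted in 4 windows with limma 3.58.1 (8 residual degrees of freedom). The fit was checked on simulated data with independent errors, so the check does not cover dependence between the times or arrays of unequal quality. With no replicate cultures named in the labels, p-values measure the scatter of matched differences around window means, and the number of arrays limits precision.

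Named were the 12 highest and 12 lowest called genes, the 6 largest of each phase class and 4 past the window test. Other genes named, among them those of the chromosome 14 stretch, neighbour pairs, CMB050C, CMS022C and CMG078C, were chosen after their values were seen. Locus tags of 4565 genes matched the reference table of ASM9120v1. It names 0 genes beyond the tag, so the planned product lists had no member. Alternatives covered normalisation, background, pairing, arrays and thresholds.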

Additional observations from a re-analysis of the deposited data

Results flagged for a closer look

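The following results differed between windows of the day by a test of the difference itself. The second-minus-first difference at 8 to 12 h stood apart from the mean of the other windows in 63 genes (limma, adjusted p under 0.05). The excess over the other windows was 2.70 in CMJ103C, 2.40 in CMN183C, 2.26 in CMN330C, 2.37 in CML063C and 2.57 in CMN166C. It was 1.87 in CMN263C, 2.46 in CMO089C, 2.72 in CMT504C and 2.47 in CMN169C. CMO005C had 1.96, CML050C 1.63, CMP086C 1.44 and CMI290C 1.32. In CMP086C, CMI290C and CML063C the mean of the other windows joins unlike values. These were 1.08, 0.82 and 0.97 at 2 to 6 h, and -0.80, -0.84 and -0.89 at 20 to 24 h. The windows were unequal in other genes too. At 2 to 6, 14 to 18 and 20 to 24 h CMT504C had -0.43, 0.01 and -1.37, and CMO089C had -0.11, 0.03 and -0.87. In CMN330C they were closer together, at -0.07, 0.06 and 0.18. A negative difference at 20 to 24 h adds to the excess. With the arrays scaled to a common spread, none of the 4576 genes passed this test in limma, where 489 had an unadjusted p under 0.05. Each time is 1 sample, so groups of readings at a time were not searched for samples that stand apart.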

How the results depend on the processing

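Calls numbered 169 (95 higher, 74 lower). They numbered 106 (64, 42) from the 3 matched differences alone, 127 (54, 73) as unpaired groups, 96 (60, 36) without the differences of 2, 4 and 6 h, 286 (141, 145) with quantile normalisation, 219 (101, 118) in the authors' log2 values, 398 (209, 189) with array weights, 156 (54, 102) with arrays scaled to a common spread and 102 (67, 35) at a 2-fold minimum. Leaving out a matched pair gave from 18 (12, 6) to 274 (151, 123), and from 15 to 118 genes in the window test. That test found 63 genes, and 0 after scaling, where 489 had an unadjusted p under 0.05. With all 3 series as separate values 364 genes were called (203, 161) without and 364 (203, 161) with the series number as a replicate block. These fits count series 3, the mean of the other series, as a further sample, and the block changed none of these counts. The 2-fold rule gave 119 genes and 183 with normexp, all 119 among them. Genes at another level in general numbered 38, and 19 after loess. Genes ahead numbered 32, and 55 at a fitted change of 0.25. Fits with pairs or times left out hold fewer samples, and for the other settings the cause was not tested. In 540 refits of the 30 named genes 484 kept the call, 56 lost it and 0 changed sign. This pooled count joins unlike refits. Most of the 30 lost their call without 34 and 10 h, where 18 of all genes were called. Refits with all 3 series as separate values could hardly lose a call. The smallest SD over genes stayed at a lag of 20 h after loess, scaling and in the authors' log2 values minus the median. The median absolute difference, computed for the main setting alone, was smallest at 24 h.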
